A study of Homo sapiens with 54 samples.

Results

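The genes described here are 9 genes of pyrimidine and deoxynucleotide metabolism, RRM1, RRM2, TYMS, DUT, DCTD, TK1, DCK, CDA and SAMHD1. They were picked by name for their place in this pathway, with earlier results of these data known, and all 9 were found by symbol among the 27470 genes of the deposited count table. RNA had been measured in 54 libraries of 2 triple negative breast cancer (TNBC) cell lines, SUM1315, which carries a BRCA1 mutation, and MDA-MB-468, which is wild type for BRCA1. Each line gave 27 libraries in 9 conditions of 3 libraries. Parental SUM1315 cells were left untreated (control) or were exposed overnight to 8 µM olaparib, a PARP inhibitor, to 2 or 4 µM cisplatin (CDDP), a platinum drug that crosslinks DNA, or to olaparib with either CDDP dose. Parental MDA-MB-468 cells received 3 µM olaparib, 1 or 2.5 µM CDDP, or their combinations. Olaparib-resistant (OlaR) cells of each line had been selected in rising olaparib doses and were kept in the drug, at 25 µM for SUM1315 and 15 µM for MDA-MB-468, alone or with either CDDP dose of the parental line. Doses are in µM as in the study's methods, while the protocol labels write mM. No drug-free OlaR library was analysed here, and OlaR cells saw more olaparib than the olaparib-treated parental cells, so that resistance and the dose of the drug cannot be told apart. The sources used here do not say whether the 3 libraries of a condition came from separate cultures, so the p-values measure the spread between these libraries, which may be technical.

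The deoxynucleotides (dNTPs) that DNA polymerases use are made by reduction of ribonucleotides or are recovered from nucleosides. RRM1 is the large, catalytic subunit and RRM2 the small, radical-bearing subunit of ribonucleotide reductase, the enzyme of the first route. Thymidylate is made by thymidylate synthase (TYMS) from dUMP, which dUTPase (DUT) supplies by hydrolysing dUTP and which dCMP deaminase (DCTD) supplies from dCMP. In the salvage route, TK1 phosphorylates thymidine in the cytosol, DCK phosphorylates deoxycytidine and many nucleoside drugs, and cytidine deaminase (CDA) turns cytidine and deoxycytidine, and cytidine-analog drugs, into uridines. SAMHD1 hydrolyses dNTPs. Several of these genes, RRM2, TK1 and TYMS among them, are known to be transcribed mostly in S phase under the control of E2F factors, and RRM2 and TK1 proteins are degraded at the end of mitosis.

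The libraries were 3′ tag libraries, so levels are compared within a gene and not between genes. Values are the authors' adjusted read counts per gene, which were scaled to a common library size. Whole reads recovered from them came to 4977284 to 7540920 per parental SUM1315 library, 3446613 to 4665505 per OlaR SUM1315 library, 5574767 to 9268162 per parental MDA-MB-468 library and 2070301 to 4676284 per OlaR MDA-MB-468 library. The OlaR libraries were thus shallower than the parental libraries. Of 6 mesenchymal markers, 5 exceeded 10 adjusted read counts in every SUM1315 library (VIM at 7929 to 13246) and 0 in every MDA-MB-468 library (VIM at 7.99 to 53.8). Of 10 epithelial markers, 9 did so in MDA-MB-468 (EPCAM at 2631 to 3793) and 4 in SUM1315, where KRT17 was at 520.5 to 3733, KRT18 at 231 to 598 and EGFR at 332 to 963, while EPCAM, CDH1 and KRT19 had at most 5 reads per library. Their summed level was 1854 to 4651 in SUM1315 and 18399 to 28871 in MDA-MB-468. Of 4 leukocyte markers, all were under 10 adjusted read counts in every MDA-MB-468 library and 3 in every SUM1315 library. Of 3 receptor genes, ESR1 was at 24.9 to 220.5 in MDA-MB-468 and 0 to 25.6 in SUM1315. ERBB2 was at 5.33 to 59.2 and 15.9 to 63.3, and PGR had at most 3 reads per library. Of 3 endothelial markers, PECAM1 was at 45.0 to 207 in SUM1315 and 1.56 to 16.4 in MDA-MB-468. VWF and CDH5 had at most 6 reads per library. A change was called where the adjusted p was at or under 0.05 in limma's moderated test on log2(adjusted read count + 1), with Benjamini-Hochberg adjustment over 13133 genes in SUM1315 or 13012 in MDA-MB-468. Fold changes are on that scale, which understates changes of genes with few reads.

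All 9 genes had at least 1 window among the RefSeq promoter sequences of GRCh38.p14, 15 windows in all. The 250 bases before the annotated main start site are shown for RRM2, TK1, DCK and CDA, picked as examples. RRM2, TK1 and DCK were called higher with olaparib and with both CDDP doses alone in parental cells of both lines. So were RRM1 and DUT, which are not shown. Some of these calls of DCK and DUT in MDA-MB-468 were lost when 1 library was left out, as given below. CDA was not called with olaparib alone in either line, and neither were DCTD and SAMHD1, also not shown. With the higher CDDP dose, however, CDA, DCTD and SAMHD1 were called higher in SUM1315. Which matches appear in the sequences shown therefore depends on this choice of genes. Capitals mark matches, on either strand, to 4 forms of the E2F core, to the CCAAT box and to the cell-cycle homology element, none of which overlapped in these windows. The form TTCCCGC stood in 5.52% of all 35116 promoter windows of this length. The other forms were TTCGCGC, found in 1.85% of those windows, then the form TTGCCGC, found in 1.87% of the windows, and finally the form TTGGCGC, found in 2.56% of them. The box with the letters CCAAT was present in 32.0% of the windows. The cell-cycle homology element, with the letters TTTGAA, was present in 13.3%.
RRM2, chr2:10122489-10122738, plus strand: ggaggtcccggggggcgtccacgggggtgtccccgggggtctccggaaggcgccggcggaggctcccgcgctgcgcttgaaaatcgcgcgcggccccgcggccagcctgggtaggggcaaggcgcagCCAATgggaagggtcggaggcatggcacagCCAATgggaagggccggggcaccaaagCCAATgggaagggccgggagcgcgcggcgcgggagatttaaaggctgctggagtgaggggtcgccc
TK1, chr17:78187053-78187302, minus strand: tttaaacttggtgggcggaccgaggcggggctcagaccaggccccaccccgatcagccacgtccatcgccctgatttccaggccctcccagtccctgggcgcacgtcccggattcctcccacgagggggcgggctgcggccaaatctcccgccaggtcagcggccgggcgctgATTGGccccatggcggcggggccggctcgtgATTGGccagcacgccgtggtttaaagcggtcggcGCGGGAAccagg
DCK, chr4:70993399-70993648, plus strand: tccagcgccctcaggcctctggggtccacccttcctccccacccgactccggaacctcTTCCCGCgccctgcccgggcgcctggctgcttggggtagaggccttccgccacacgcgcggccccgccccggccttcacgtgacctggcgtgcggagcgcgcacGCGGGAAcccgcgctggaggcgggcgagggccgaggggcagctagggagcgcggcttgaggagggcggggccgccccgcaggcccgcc
CDA, chr1:20588847-20589096, plus strand: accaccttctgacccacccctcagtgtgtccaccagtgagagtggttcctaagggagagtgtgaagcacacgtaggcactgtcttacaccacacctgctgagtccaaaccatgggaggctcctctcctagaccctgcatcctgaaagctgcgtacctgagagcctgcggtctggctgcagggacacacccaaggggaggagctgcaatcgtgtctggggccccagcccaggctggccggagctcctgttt
The RRM2 window held 3 CCAAT boxes, starting 123, 93 and 66 bases before the start site, and the window of a more upstream RRM2 start site, chr2:10122318-10122567, held 1 E2F core, of the form TTGGCGC, and 1 CCAAT box. The TK1 window held 2 CCAAT boxes on the opposite strand, at 77 and 46 bases, and 1 E2F core TTCCCGC on the opposite strand at 12 bases. The DCK window held 2 E2F cores TTCCCGC, at 192 bases and, on the opposite strand, at 88 bases. The CDA window held none of these letters. At least 1 of the 4 E2F cores stood in 10.9% of all windows. A match is a description, not a binding site. The RRM1 window, which is not at its main start site, held 1 match of each kind. The window of the main start site of TYMS held 1 E2F core, that of SAMHD1 held 2 CCAAT boxes, and those of DUT and DCTD held no match. A more downstream start site of DUT, chr15:48331947-48332196, held 2 E2F cores and 2 copies of the cell-cycle homology element in its window.

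In parental cells every change that was called in the 9 genes after olaparib or CDDP alone was an increase. Of all genes in SUM1315, 17.1% fell with olaparib and 21.7% with the higher CDDP dose. In MDA-MB-468 these shares were 9.11% and 11.8%. In SUM1315, olaparib raised 5 of the 8 genes tested (18.9% of all genes rose), the lower CDDP dose raised 7 of 8 (19.4%) and the higher dose 8 of 8 (22.2%). Of these, 3, 5 and 5 genes rose at least 2-fold, as did 4.99%, 5.41% and 7.24% of all genes. In MDA-MB-468, olaparib raised 5 of 9 genes (12.4% of all genes rose), the lower CDDP dose 5 of 9 (10.6%) and the higher dose 6 of 9 (13.3%). A 2-fold rise was reached there by none of the 9 genes with olaparib, by RRM2 with the lower CDDP dose and by RRM2 and TK1 with the higher dose, and by 0.653%, 1.13% and 1.64% of all genes. These comparisons share their untreated libraries within a line. In bulk RNA, a changed share of cells that express a gene and a changed level per cell cannot be told apart.

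**Figure D1:**
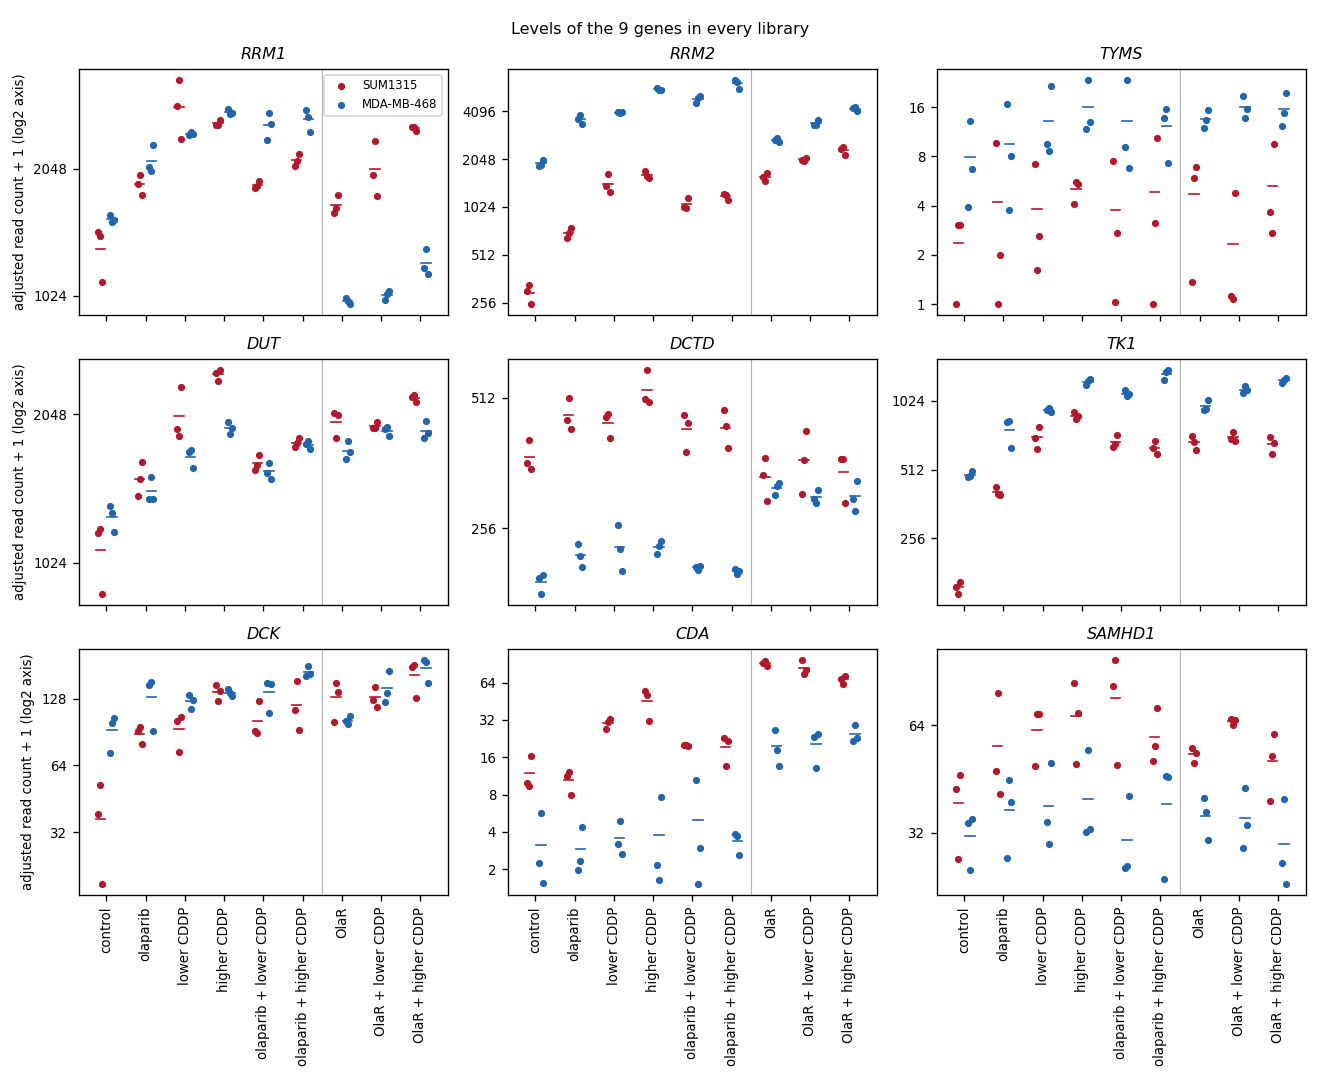
Adjusted read count plus 1 of each of the 9 genes (vertical axis, log2 scale, a different range in each panel) in the 9 conditions of SUM1315 (red) and MDA-MB-468 (blue), where each point is a library and each short line the mean of 3. RRM2 and TK1 climbed from control to the higher CDDP dose in both lines, CDA was highest in the OlaR conditions, and RRM1 in MDA-MB-468 was lowest there.

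RRM2 (chr2:10120698-10211725, plus strand, GRCh38), the small subunit of ribonucleotide reductase, rose in every treated parental condition. In SUM1315 the untreated libraries were at 303, 328 and 249 adjusted read counts and those with olaparib at 656, 706 and 749. With the lower CDDP dose RRM2 was at 1379.9, 1646 and 1267, and with the higher dose at 1732, 1597 and 1565. All 9 libraries with a single drug lay above the 3 untreated ones, and the 2 CDDP doses overlapped. The increase was 2.40-fold with olaparib (log2 fold change 1.27 ± 0.10 SE, adjusted p = 7.95e-12), 4.87-fold with the lower CDDP dose (adjusted p = 4.93e-18) and 5.57-fold with the higher dose (log2 fold change 2.48 ± 0.10 SE, adjusted p = 2.21e-19). In MDA-MB-468, RRM2 went from 1862, 1885 and 2029 in untreated cells to 3658, 3881 and 3426 with olaparib, 4063, 3985 and 4032 with the lower CDDP dose and 5764, 5622 and 5608 with the higher dose. These groups did not overlap one another, and the increases were 1.90-fold, 2.09-fold and 2.94-fold (log2 fold change 1.56 ± 0.05 SE, adjusted p = 1.27e-29 for the last). All 3 single treatments thus raised this subunit in both lines.

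RRM1 (chr11:4094707-4138932, plus strand), the large subunit, was at 1452, 1415 and 1103 in untreated SUM1315 cells, at 1887, 1981 and 1773 with olaparib and at 2603, 2601 and 2676 with the higher CDDP dose. It rose 1.43-fold with olaparib (adjusted p = 2.10e-04), 2.16-fold with the lower CDDP dose (adjusted p = 5.40e-10) and 2.00-fold with the higher dose (log2 fold change 1.00 ± 0.11 SE, adjusted p = 2.38e-09). In MDA-MB-468, RRM1 went from 1591, 1533 and 1548 in untreated cells to 2832, 2755 and 2774 with the higher CDDP dose. The increases in this line were 1.37-fold with olaparib, 1.59-fold with the lower CDDP dose and 1.79-fold with the higher dose (log2 fold change 0.84 ± 0.06 SE, adjusted p = 3.52e-16). A difference between the lines was not called for this gene, where the effect of the higher CDDP dose was 0.16 log2 units larger in SUM1315, with a 95% interval of -0.09 to 0.41 and an adjusted p of 0.362.

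In OlaR cells the large subunit changed in MDA-MB-468 and the small subunit in both lines. In MDA-MB-468, RRM1 was at 1012, 993 and 979 in OlaR cells against 2063, 2019 and 2335 in olaparib-treated parental cells, so that all OlaR libraries lay below not only these but also the untreated libraries. It fell 2.15-fold (log2 fold change -1.10 ± 0.06 SE, adjusted p = 1.04e-21). RRM2 in the same OlaR libraries was at 2710.0, 2771 and 2636, between the untreated and the olaparib-treated parental libraries, and fell 1.35-fold against the latter (log2 fold change -0.43 ± 0.05 SE, adjusted p = 6.10e-10). In SUM1315, RRM1 was at 1608, 1656 and 1771 in OlaR cells and 1887, 1981 and 1773 in olaparib-treated parental cells, a difference of -0.16 log2 units with a 95% interval of -0.38 to 0.05 and an adjusted p of 0.207. RRM2 in SUM1315 OlaR cells was at 1589.6, 1482 and 1682, above every olaparib-treated parental library, and rose 2.25-fold (log2 fold change 1.17 ± 0.10 SE, adjusted p = 2.05e-11). The OlaR effect on RRM1 was 0.94 ± 0.12 log2 units higher in SUM1315 than in MDA-MB-468, and that on RRM2 1.60 ± 0.11 units higher (adjusted p = 2.61e-08 and 2.84e-16 in the joint fit of both lines). The edgeR test on the recovered reads, which takes the shallower OlaR libraries into account, gave an adjusted p of 8.42e-23 for RRM1 in MDA-MB-468.

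DUT (chr15:48331011-48343373, plus strand), the dUTPase that removes dUTP and yields dUMP, rose with both drugs. In SUM1315 it was at 1173, 1195 and 884 in untreated cells, 1395, 1511 and 1634 with olaparib and 2480.1, 2396 and 2518 with the higher CDDP dose, and these groups did not overlap. The increases were 1.41-fold, 1.88-fold with the lower CDDP dose and 2.29-fold (log2 fold change 1.20 ± 0.10 SE, adjusted p = 6.10e-12 for the higher dose). In MDA-MB-468, DUT went from 1335, 1289 and 1179 to 1976, 1864 and 1921 with the higher CDDP dose, a 1.52-fold increase (log2 fold change 0.60 ± 0.06 SE, adjusted p = 7.38e-12), and rose 1.33-fold with the lower dose. With olaparib it was at 1376, 1528 and 1377, 1.13-fold higher (adjusted p = 0.0261), which was not called without replicate 2 of the olaparib libraries (adjusted p = 0.196) or without replicate 3 of the untreated libraries (0.206). OlaR cells held more DUT than olaparib-treated parental cells in both lines, by 1.31-fold in SUM1315 (adjusted p = 0.00132) and 1.21-fold in MDA-MB-468 (adjusted p = 6.66e-05). The difference of these OlaR effects between the lines was 0.11 log2 units, with a 95% interval of -0.11 to 0.33.

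DCTD (chr4:182890060-182917936, minus strand), the dCMP deaminase, rose with the higher CDDP dose, and like RRM2 it changed in opposite directions in the OlaR cells of the 2 lines. Untreated SUM1315 libraries were at 361, 409 and 351 and those with the higher CDDP dose at 508, 593 and 501, a 1.43-fold increase (adjusted p = 0.00144). With olaparib it gave 0.32 log2 units in SUM1315 (adjusted p = 0.0511), which was called without replicate 3 of the olaparib libraries (0.0469) or replicate 2 of the untreated ones (0.0344). In MDA-MB-468 the higher dose raised it 1.20-fold, from 196, 179.6 and 198 to 222, 232 and 238 (adjusted p = 0.0403). That call was lost when any 1 of these 6 libraries was left out, with adjusted p from 0.0528 without replicate 1 of the treated libraries to 0.153 without replicate 2 of the untreated ones. In OlaR cells DCTD was at 339, 370.2 and 295 in SUM1315, below the olaparib-treated parental values of 454, 510.1 and 433, and it fell 1.39-fold (log2 fold change -0.48 ± 0.13 SE, adjusted p = 0.00256). In MDA-MB-468 it was at 304, 320.2 and 325 in OlaR cells, above the olaparib-treated parental values of 235, 219.9 and 207, and it rose 1.43-fold (log2 fold change 0.52 ± 0.10 SE, adjusted p = 1.73e-05). Between the lines the effect differed by -1.0 ± 0.15 log2 units, SUM1315 minus MDA-MB-468 (adjusted p = 6.36e-07).

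TYMS, the thymidylate synthase gene, could hardly be measured. It held 0 to 10 reads per SUM1315 library and 5 to 27 reads per MDA-MB-468 library, and it did not reach the minimum for a test in SUM1315. In GENCODE the gene lies at chr18:657653-673578 on the plus strand, and ENOSF1, on the minus strand at chr18:670318-712662, covers the last 3261 bases of it, including its 3′ end. Whether the counting used strand is not given in the sources used here, so reads of both genes cannot be told apart with certainty, and TYMS values are uncertain. ENOSF1 itself was at 67.2 to 243 adjusted read counts in SUM1315 and 696 to 1189.9 in MDA-MB-468. In MDA-MB-468, TYMS was at 2.93, 12.2 and 5.67 in untreated cells and 10.8, 22.4 and 11.9 with the higher CDDP dose, and the groups overlapped (log2 fold change 1.12 ± 0.50 SE, adjusted p = 0.099). The 62 against 29 reads gave a ratio of 2.15 with a 95% interval of 1.36 to 3.46 that covers counting error only. None of its differences in this line was called, and without replicate 2 of the untreated libraries this one had an adjusted p of 0.0324.

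TK1 (chr17:78174091-78187233, minus strand), the cytosolic thymidine kinase, rose with every treatment of parental cells. In SUM1315 it was at 155, 145 and 164 in untreated cells, 427, 398 and 395 with olaparib, 704, 631 and 787 with the lower CDDP dose and 916, 848 and 882 with the higher dose. No 2 of these groups overlapped, and the increases were 2.62-fold, 4.53-fold and 5.67-fold (log2 fold change 2.50 ± 0.10 SE, adjusted p = 1.49e-19 for the last). In MDA-MB-468 it went from 476, 478 and 505 to 826, 837 and 633 with olaparib, 931, 954 and 918 with the lower CDDP dose and 1205, 1253 and 1275 with the higher dose, again without overlap. The increases there were 1.56-fold, 1.92-fold and 2.56-fold (log2 fold change 1.35 ± 0.07 SE, adjusted p = 5.23e-21 for the last). OlaR cells held 1.65-fold more TK1 than olaparib-treated parental cells in SUM1315 and 1.28-fold more in MDA-MB-468 (adjusted p = 3.16e-07 and 3.82e-05).

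DCK (chr4:70992538-71030914, plus strand), the kinase that starts deoxycytidine salvage, was at 37.8, 51.5 and 17.8 in untreated SUM1315 cells, where replicate 3 stood lowest. It was at 90.7, 94.0 and 78.9 with olaparib and 146, 124 and 138 with the higher CDDP dose, and the 3 groups did not overlap. It rose 2.63-fold with olaparib, 2.74-fold with the lower CDDP dose and 4.05-fold with the higher dose (log2 fold change 2.02 ± 0.25 SE, adjusted p = 7.64e-08 for the last). In MDA-MB-468, DCK was at 71.6, 98.1 and 104 in untreated cells and 141, 134 and 130.0 with the higher CDDP dose, a 1.49-fold increase (adjusted p = 0.00564) that was not called without replicate 1 of the untreated libraries (adjusted p = 0.0877). With olaparib it was at 146, 150.1 and 90.2, which overlapped the untreated values, and rose 1.39-fold (adjusted p = 0.0274). Without replicate 1 or 2 of the olaparib libraries or replicate 1 of the untreated ones, the adjusted p of that difference was 0.16, 0.189 and 0.24. With the lower CDDP dose DCK rose 1.36-fold (adjusted p = 0.0438), a call lost without any 1 of the treated libraries (adjusted p from 0.0503 without replicate 2 to 0.137 without replicate 1) or without replicate 1 of the untreated ones (0.304). OlaR against olaparib-treated parental cells gave 0.53 log2 units in SUM1315 (adjusted p = 0.0871) and -0.31 in MDA-MB-468 (adjusted p = 0.102), neither of which was called. Both were called in some of the settings tried, with adjusted p of 0.0448 without replicate 1 of the SUM1315 OlaR libraries and 0.00471 without replicate 3 of the olaparib-treated MDA-MB-468 libraries.

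CDA (chr1:20589086-20618903, plus strand), the cytidine deaminase that inactivates cytidine-analog drugs, had its highest levels in OlaR cells. In SUM1315 it was at 10.3, 11.2 and 6.99 adjusted read counts in olaparib-treated parental cells and 91.8, 94.8 and 85.4 in OlaR cells. It rose 8.87-fold (log2 fold change 3.15 ± 0.29 SE, adjusted p = 1.11e-10), and the 3 OlaR libraries lay above all 18 parental libraries of the line, which ranged from 6.99 to 53.3. In MDA-MB-468 it was at 25.7, 17.3 and 12.6 in OlaR cells, whereas the 18 parental libraries ranged from 0.521 to 9.39. The 3 OlaR libraries held 46 reads and the 3 olaparib-treated parental libraries 8, a ratio of 10.1 after scaling with a 95% interval of 4.72 to 24.8 for counting error only. In limma's test the increase was 6.93-fold (log2 fold change 2.79 ± 0.64 SE, adjusted p = 2.39e-04). CDA reached the minimum for a test in MDA-MB-468 only through the OlaR libraries, so it could enter that fit only by being high there. CDA was higher in every OlaR library than in any parental library of its line. OlaR libraries also held fewer reads than parental ones, and an effect of depth on this difference was not tested. The OlaR effect differed between the lines by 0.36 log2 units, with a 95% interval of -0.99 to 1.70 (adjusted p = 0.704), but with a pseudocount of 10 in place of 1 the difference was 1.13 with an adjusted p of 0.0011.

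CDDP raised CDA in parental SUM1315 cells, to 25.8, 29.7 and 31.4 with the lower dose and 53.3, 49.5 and 30.4 with the higher dose against 8.89, 8.32 and 15.4 in untreated cells. These increases of 2.60-fold and 3.85-fold (adjusted p = 3.53e-04 and 1.69e-06) stood beside a value with olaparib alone that was not called (-0.15 log2 units, 95% interval -0.74 to 0.44). Olaparib added to the higher CDDP dose lowered CDA 2.33-fold, to 21.9, 12.7 and 20.8 (log2 fold change -1.22 ± 0.29 SE, adjusted p = 0.00412). CDDP at the higher dose added to olaparib gave 0.88 log2 units (adjusted p = 0.0541), which was called only without replicate 2 of the combination (adjusted p = 0.0334). In parental MDA-MB-468 the few reads of CDA, 8 to 15 per condition, allow no such statement.

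**Figure D2:**
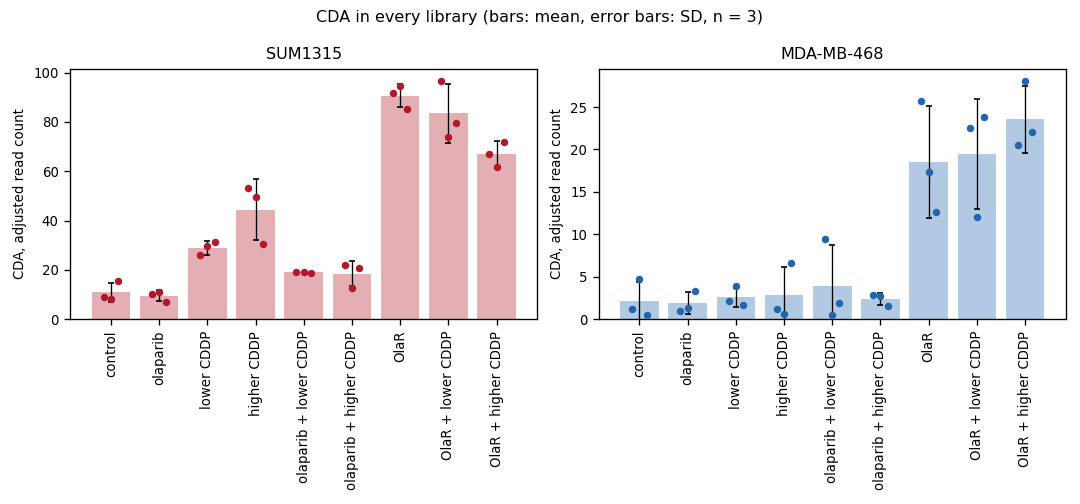
Adjusted read count of CDA (vertical axis, linear, from 0, a different range for each line) in each condition of SUM1315 and MDA-MB-468, with bars for the mean, error bars for the SD over 3 libraries and a point for each library. The SUM1315 OlaR conditions stood at means of 66.9 to 90.6 and the MDA-MB-468 OlaR conditions at 18.5 to 23.6, above every parental condition of their line.

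SAMHD1 (chr20:36890229-36951893, minus strand), the dNTP hydrolase, was at 26.0 to 96.6 adjusted read counts over all SUM1315 libraries and 22 to 53.4 over all MDA-MB-468 libraries. Untreated SUM1315 libraries were at 41.5, 26.0 and 45.4, those with the lower CDDP dose at 48.0, 67.7 and 67.9 and those with the higher dose at 83.1, 48.9 and 68.1. It rose 1.63-fold and 1.76-fold (adjusted p = 0.0467 and 0.017). The call at the higher dose was lost without replicate 1 of the treated libraries (adjusted p = 0.099) or replicate 2 of the untreated ones (0.123). That at the lower dose was lost without replicate 2 or 3 of the treated libraries (0.138 and 0.126) or replicate 1 or 2 of the untreated ones (0.0525 and 0.237), and in 6 of the 7 other settings. No difference of SAMHD1 was called in MDA-MB-468, and OlaR against olaparib-treated parental cells gave -0.02 log2 units in SUM1315 (95% interval -0.58 to 0.55) and -0.03 in MDA-MB-468 (-0.63 to 0.57). The last 4007 bases of SAMHD1, its 3′ end included, overlap TLDC2 on the other strand. As for TYMS, the strand setting of the counting is not given, so SAMHD1 values are uncertain too. DCK shares 29912 bases with MOB1B on the same strand, away from the 3′ end of DCK. RRM1-AS1 and DUT-AS1 overlap RRM1 and DUT on the other strand, away from their 3′ ends.

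Compared with olaparib-treated parental cells, OlaR cells of SUM1315 had 4 of 8 genes higher (21.6% of all genes) and 1 lower (25.7%). Without CDA, which in MDA-MB-468 was tested only because its OlaR libraries were high, those of MDA-MB-468 had 3 of 8 genes higher (23.6%) and 2 lower (27.9%). In SUM1315, RRM2, DUT, TK1 and CDA were higher and DCTD was lower. In MDA-MB-468, DUT, DCTD and TK1 were higher and RRM1 and RRM2 were lower. A 2-fold change was reached by RRM2 and CDA in SUM1315 and by RRM1 in MDA-MB-468, CDA aside, and by 16.6% and 14.3% of all genes. DUT and TK1 were thus called higher in OlaR cells of both lines.

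**Figure D3:**
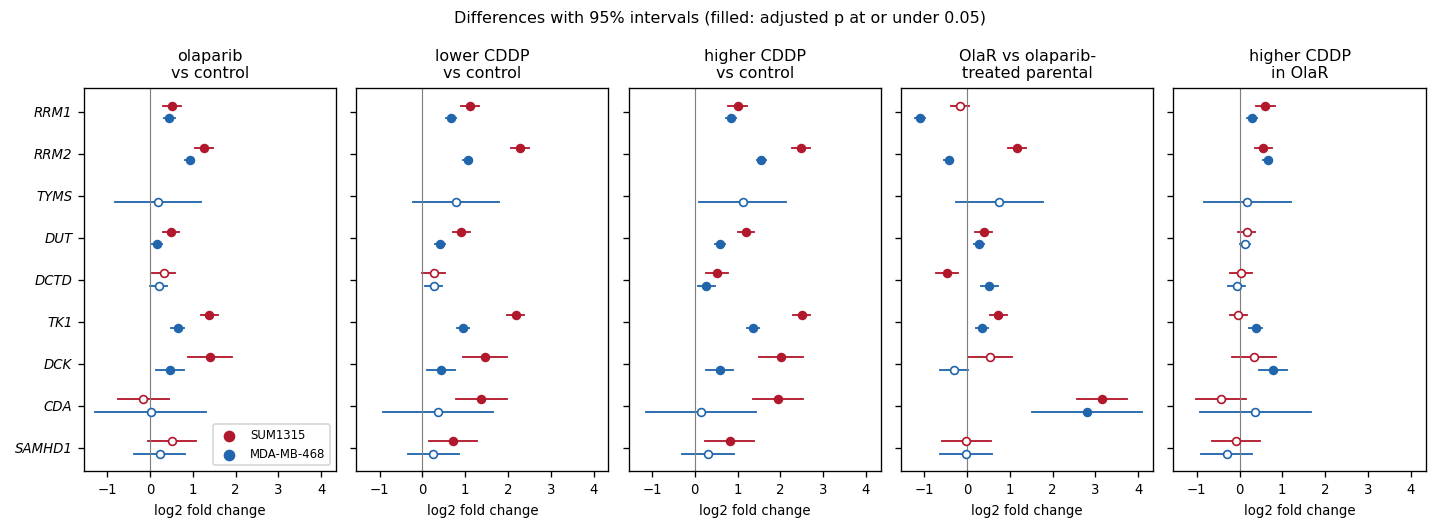
Log2 fold change (horizontal axis) of each gene in 5 comparisons of SUM1315 (red) and MDA-MB-468 (blue), with lines for the 95% interval from limma and filled points where the adjusted p was at or under 0.05. RRM2 and TK1 had the largest changes with CDDP alone in MDA-MB-468, and CDA had the largest between OlaR and olaparib-treated parental cells in SUM1315. The CDA point of that comparison in MDA-MB-468 rests on few reads, and CDA was tested there only because its OlaR libraries were high.

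When CDDP was added to olaparib in parental cells, RRM2 and TK1 rose further. In SUM1315 these were the 2 genes of 8 called higher at the lower dose (2.09% of all genes) and at the higher dose (4.35%). RRM2 was at 1240.3, 1224 and 1134 and TK1 at 636, 682 and 598 with olaparib and the higher dose, 1.70-fold and 1.57-fold above olaparib alone (adjusted p = 2.88e-06 and 3.99e-05). In MDA-MB-468, RRM1, RRM2 and TK1 rose at the lower dose (3 of 9 genes, 2.30% of all genes) and DUT with them at the higher dose (4 of 9, 10.1%). There, RRM2 was at 6458, 6265 and 5695 and TK1 at 1267, 1375 and 1399, 1.68-fold and 1.77-fold above olaparib alone (adjusted p = 9.68e-17 and 1.59e-13). Set against the higher CDDP dose alone, the combination had RRM2, DUT, TK1 and CDA lower in SUM1315 (4 of 8 genes, 6.52% of all genes), by 1.36-fold, 1.37-fold, 1.38-fold and 2.33-fold. In MDA-MB-468 limma called 0 of 9 genes in that comparison (11.9% of all genes), with 1 of 9 at an unadjusted p under 0.05 and 0 by edgeR and by DESeq2. For RRM2 the difference there was 0.11 log2 units with a 95% interval of 0.01 to 0.22.

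In OlaR cells CDDP raised RRM1 and RRM2 in both lines at the higher dose. In SUM1315 the lower dose changed 0 of 8 genes by limma (1.42% of all genes), with 2 at an unadjusted p under 0.05, 0 by edgeR and 1, RRM2, by DESeq2. The higher dose raised RRM1 1.52-fold, to 2576, 2573 and 2515, and RRM2 1.47-fold, to 2363, 2461 and 2168 (2 of 8 genes, 7.13% of all genes, adjusted p = 1.08e-04 and 1.73e-04). TK1 was at 719, 678 and 622 in OlaR cells and 708, 600.5 and 669.9 with the higher dose, a difference of -0.03 log2 units with a 95% interval of -0.23 to 0.17. In MDA-MB-468 the lower dose raised RRM2 1.27-fold (adjusted p = 2.33e-05) and TK1 1.18-fold (adjusted p = 0.0344), 2 of 9 genes where 1.84% of all genes rose. The call of TK1 was lost without replicate 2 or 3 of the CDDP-treated OlaR libraries (adjusted p = 0.145 and 0.0836) or replicate 1 or 2 of the other OlaR libraries (0.149 and 0.121). The higher dose raised RRM1, RRM2, TK1 and DCK (4 of 9, 7.43% of all genes), RRM2 from 2710.0, 2771 and 2636 to 4291, 4361 and 4126 (log2 fold change 0.65 ± 0.05 SE, adjusted p = 3.84e-14) and DCK from 100.4, 97.2 and 105 to 190.1, 185 and 149 (log2 fold change 0.78 ± 0.16 SE, adjusted p = 3.04e-04).

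Whether CDDP acted differently in OlaR cells was tested as the effect of the higher dose in OlaR cells minus its effect when added to olaparib in parental cells. TK1 responded less in OlaR cells of both lines, with a difference of -0.68 ± 0.14 log2 units in SUM1315 (adjusted p = 0.00237) and -0.45 ± 0.10 in MDA-MB-468 (adjusted p = 0.00106). TK1 was at 719, 678 and 622 in SUM1315 OlaR cells without CDDP, which overlapped the parental combination at 636, 682 and 598. With the higher CDDP dose alone it was at 916, 848 and 882 in that line. In MDA-MB-468 OlaR cells without CDDP it was at 931, 944 and 1036, below the parental combination at 1267, 1375 and 1399. Why TK1 responded less was not tested. CDA in SUM1315 differed by -1.31 log2 units (adjusted p = 0.0491), a call at the threshold that was lost without any 1 of the 12 libraries except replicate 2 of the combination, with adjusted p between 0.0514 and 0.116. These were 2 of 8 genes in SUM1315 and 1 of 9 in MDA-MB-468. The difference was called below 0 for 4.41% and 7.47% of all genes, whether through a weaker rise or a stronger fall in OlaR cells. For RRM2 the difference was -0.21 (95% interval -0.50 to 0.07) in SUM1315 and -0.09 (-0.24 to 0.05) in MDA-MB-468, and neither was called.

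The effects of the drugs were compared between the lines in 1 fit of all 54 libraries and 14460 genes. The doses differed between the lines, and since libraries were sequenced in batches of 27 that may coincide with the lines, only differences of effects are compared. The higher CDDP dose raised RRM2, DUT, TK1, DCK and CDA more in SUM1315 (5 of 9 genes, 13.7% of all genes). The difference was 1.15 ± 0.12 log2 units for TK1 (adjusted p = 1.02e-10), 0.92 ± 0.11 for RRM2 (8.74e-09), 1.44 ± 0.32 for DCK (5.35e-04) and 0.60 ± 0.11 for DUT (3.50e-05). For CDA it was 1.79 ± 0.67 (adjusted p = 0.0402), on at most 12 reads per MDA-MB-468 condition compared. That call was lost without replicate 1 or 2 of the CDDP-treated or untreated SUM1315 libraries or of the CDDP-treated MDA-MB-468 libraries, or without replicate 2 of the untreated ones, with adjusted p of 0.077 to 0.176, and edgeR and DESeq2 did not make it. With olaparib alone, RRM2, DUT, TK1 and DCK rose more in SUM1315 (4 of 9, 9.99% of all genes), TK1 by 0.74 ± 0.12 (adjusted p = 4.27e-06). The other 3 differences, 0.34, 0.32 and 0.92, had adjusted p of 0.022, 0.0309 and 0.0359. That of RRM2 was lost without replicate 3 of any of the 4 conditions compared (adjusted p = 0.0677 to 0.14). That of DUT was lost without replicate 2 or 3 of the olaparib-treated or 3 of the untreated SUM1315 libraries, or without replicate 1 or 3 of the olaparib-treated or 1 or 2 of the untreated MDA-MB-468 libraries (0.0509 to 0.225). That of DCK was lost without replicate 1 or 2 of the olaparib-treated or 3 of the untreated SUM1315 libraries, or without replicate 3 of the olaparib-treated or 2 or 3 of the untreated MDA-MB-468 libraries (0.0634 to 0.264).

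The effect of OlaR against olaparib-treated parental cells differed between the lines in 5 of 9 genes. RRM1, RRM2, TK1 and DCK had the higher effect in SUM1315, as did 20.3% of all genes, and DCTD the lower, as did 21.4%. The difference was 0.37 ± 0.12 log2 units for TK1 (adjusted p = 0.00793) and 0.84 ± 0.32 for DCK (adjusted p = 0.0317). That of DCK was lost without replicate 2 or 3 of the SUM1315 OlaR libraries, replicate 3 of the olaparib-treated SUM1315 libraries, replicate 2 of the MDA-MB-468 OlaR libraries, or replicate 1 or 2 of the olaparib-treated MDA-MB-468 libraries (adjusted p = 0.0565 to 0.0929). The effect of the higher CDDP dose in OlaR cells was lower in SUM1315 for 1 gene of 9 (2.88% of all genes), TK1, which was -0.41 ± 0.12 log2 units, SUM1315 minus MDA-MB-468 (adjusted p = 0.028). Without replicate 1 or 2 of the OlaR libraries of either line, replicate 2 of the CDDP-treated SUM1315 OlaR libraries or replicate 3 of the CDDP-treated MDA-MB-468 OlaR libraries, that difference had an adjusted p of 0.0529 to 0.0909.

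**Figure D4:**
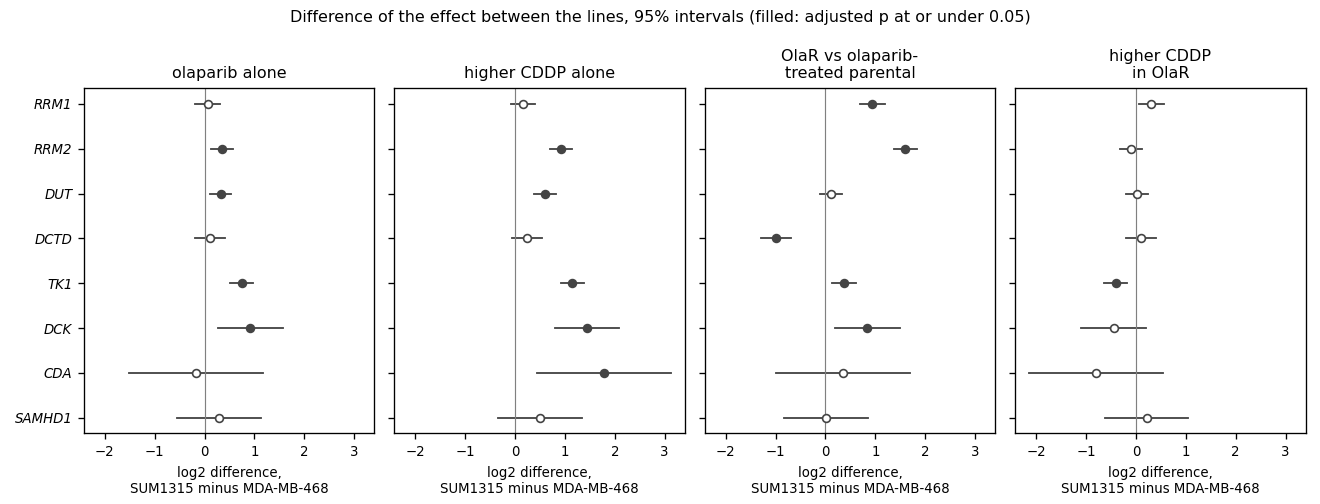
Difference between the lines (horizontal axis, log2 units, SUM1315 minus MDA-MB-468) in the effect of olaparib, of the higher CDDP dose, of OlaR and of CDDP in OlaR cells for 8 genes, with lines for the 95% interval and filled points where the adjusted p was at or under 0.05. TYMS is left out because its interval spans more than 4 log2 units, and every filled point for the single drugs lies to the right of 0.

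Beside the 9 genes, 40 other genes of pyrimidine and dNTP metabolism were examined, of which 35 were tested in SUM1315 and 36 in MDA-MB-468. Some of them rose and others fell. With the higher CDDP dose 13 of 35 rose and 8 fell in SUM1315, where 22.2% of all genes rose and 21.7% fell (median log2 fold change 0.09, against -0.0031 over all genes). In MDA-MB-468, 13 of 36 rose and 5 fell, where 13.3% of all genes rose and 11.8% fell (median 0.19, against 0.0086). Among those that rose at least 2-fold in SUM1315 were NUDT1, which clears oxidised purine nucleotides (614 ± 45.6 against 243 ± 24.7 adjusted read counts), DTYMK, the thymidylate kinase that follows TK1 and TYMS (693 ± 28.0 against 259.7 ± 59.2), and NME1, a nucleoside diphosphate kinase (1946 ± 71.8 against 903 ± 54.6). In MDA-MB-468 the nucleoside transporter gene SLC28A3 fell from 19.0 ± 3.03 in untreated cells to 3.46 ± 3.09 with olaparib and 6.04 ± 4.53 with the higher CDDP dose (adjusted p = 0.00205 and 0.0267). With olaparib, 7 of 35 rose and 9 fell in SUM1315, where 18.9% of all genes rose and 17.1% fell, and 6 of 36 rose and 6 fell in MDA-MB-468, where 12.4% rose and 9.11% fell. The share that rose was thus near that of all genes in SUM1315. UPP1, the uridine phosphorylase, was at 156 ± 14.8 against 427 ± 8.72 in SUM1315.

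In OlaR cells of SUM1315, 12 of these 35 genes were higher and 9 lower than in olaparib-treated parental cells, against 21.6% and 25.7% of all genes. In those of MDA-MB-468, 19 of 36 were higher and 6 lower, against 23.6% and 27.9%. In SUM1315, DPYD, the first enzyme of pyrimidine breakdown, was at 63.8 ± 8.96 against 222 ± 22.7 (log2 fold change -1.79, adjusted p = 1.85e-08). TK2, the mitochondrial thymidine kinase, was at 157 ± 19.7 against 346 ± 9.11, and SLC29A1, which carries nucleosides and nucleoside drugs into cells, at 418 ± 18.1 against 169 ± 25.3 (log2 fold changes -1.14 and 1.32). In MDA-MB-468, UPP1 was at 1401 ± 97.5 against 480.1 ± 16.4, NT5E, a surface nucleotidase, at 596 ± 17.7 against 232 ± 19.9, and TYMP, thymidine phosphorylase, at 42.4 ± 3.49 against 5.56 ± 3.44 (log2 fold changes 1.54, 1.36 and 2.88). The higher CDDP dose in OlaR cells lowered DPYD in both lines, to 11.8 ± 4.15 in SUM1315 and, from 53.3 ± 7.93 without CDDP, to 14.3 ± 1.55 in MDA-MB-468 (adjusted p = 6.73e-10 and 8.14e-07).

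Because RRM2, TK1 and DUT are expressed mostly by cycling cells, 15 S phase genes and 15 genes of G2 and mitosis (G2/M) were set beside them. With the higher CDDP dose 14 of 15 S phase genes rose in each line, where 22.2% of all genes rose in SUM1315 and 13.3% in MDA-MB-468 (median log2 fold change 1.18 in SUM1315 and 0.74 in MDA-MB-468), among them CDC6, CDC45 and, in SUM1315, PCNA. Their summed level was 4388 to 4451 in untreated SUM1315 libraries and 9883 to 10142 in treated ones. In MDA-MB-468 it was 7939.6 to 8209.8 in untreated and 12186 to 12679 in treated libraries. With olaparib alone 18.9% of all genes rose in SUM1315 and 12.4% in MDA-MB-468. In SUM1315, 4 of 15 S phase genes rose and 2 fell, and 14 of 15 G2/M genes rose (median 1.13), CCNB1 from 967 ± 39.7 to 2109.7 ± 45.9. In MDA-MB-468, 3 of 15 S phase genes rose and 2 fell, and 11 of 15 G2/M genes rose (median 0.54). RRM2 and TK1 rose with olaparib in both lines, as given above, beside the G2/M list. With the higher CDDP dose 12 G2/M genes rose and 1 fell in SUM1315, and 1 rose and 11 fell in MDA-MB-468, where RRM2 and TK1 rose beside the S phase list. In OlaR cells 14 of 15 S phase genes were higher than in olaparib-treated parental cells in SUM1315 and 11 in MDA-MB-468, with 0 lower in either line. Of the 15 G2/M genes, 3 were higher and 8 lower in SUM1315, and 0 higher and 12 lower in MDA-MB-468. Over all genes these shares were 21.6% higher and 25.7% lower in SUM1315 and 23.6% and 27.9% in MDA-MB-468. RRM1 in MDA-MB-468 OlaR cells thus fell, while the summed S phase level was 10745 to 10974 in those libraries against 8159.9 to 8351 in olaparib-treated parental ones. The part of the cell cycle in the changes of the 9 genes was not tested.

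**Figure D5:**
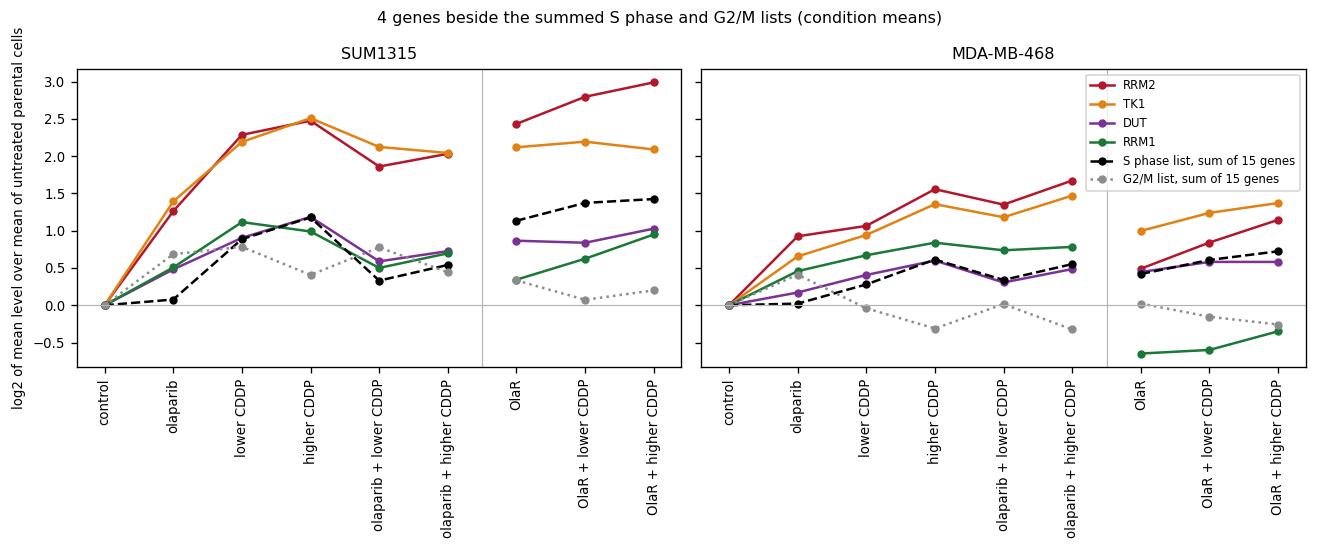
Mean level of RRM2, TK1, DUT and RRM1 and the summed level of 15 S phase genes (black, dashed) and 15 G2/M genes (grey, dotted), as log2 of the ratio to untreated parental cells (vertical axis), in the 9 conditions of SUM1315 and MDA-MB-468. RRM2 and TK1 lie above the S phase sum in every treated parental condition, and RRM1 in MDA-MB-468 lies below 0 in the OlaR conditions.

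The pattern over the conditions was compared with that of 8287 other genes with a mean of at least 50 adjusted read counts per line. The measure was Pearson's r over the 18 condition means of log2(adjusted read count + 1), each line centred on its own mean. These are descriptions, since the points share lines, libraries and treatments. Closest to RRM2 were ORC1, RNASEH2A and TCF19 (0.97, 0.96 and 0.96), to TK1 ASF1B, MYBL2 and NRGN (0.95, 0.94 and 0.93) and to DUT CDC45, MYBL2 and GINS4 (0.93, 0.93 and 0.92). Closest to DCK were DPP3, SNRNP25 and ESCO2 (0.93, 0.93 and 0.93), to RRM1 SMC1A, GCH1 and RMND5B (0.94, 0.93 and 0.93) and to DCTD BID, APRT and VOPP1 (0.92, 0.91 and 0.91). For CDA they were UFD1, FKBP4 and TMEM97 (0.98, 0.96 and 0.96), on few reads, since its mean in MDA-MB-468 was 8.59, under the minimum asked of the other genes. TYMS and SAMHD1 reached at most 0.78 and 0.79, with ZNF622, SLF1 and SLC25A17 and with NARFL, NCAPD3 and SUMO2, on few reads. Within the group, RRM2 and DCK (r = 0.92), DUT and TK1 (0.92), TK1 and DCK (0.90) and RRM2 and TK1 (0.90) had the most similar pattern. RRM2 and RRM1, subunits of the same enzyme, had an r of 0.59. The lowest and highest RRM2 conditions were the untreated and the OlaR cells with the higher CDDP dose in SUM1315 (means of 293 and 2331, 7.94-fold apart) and the untreated cells and the parental combination with the higher dose in MDA-MB-468 (1925 and 6139, 3.19-fold apart).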

How the data were processed

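The signal in the authors' deposited table is a read count per gene that the authors adjusted with edgeR to a common library size. Reads had been demultiplexed with CASAVA 1.8.2 and aligned to hg38. The submitters' processing notes also name FastQC, STAR, HTSeq and edgeR, and the strand setting of the counting is not given in the sources used here. The authors' tables of their own comparisons (fold changes and p-values) were not used. All 54 columns were mapped, and 0 were left over. The adjustment was inverted to recover whole reads, which gave back 100% of 1483380 values, so that edgeR 4.0.16 and DESeq2 1.42.0 could be run on them as alternatives (2070301 to 9268162 reads per library). The main test was limma 3.58.1 in R 4.3.3 with an intensity trend on log2(value + 1), fitted per line over 27 libraries for genes at 10 or more in at least 3 libraries, with p-values adjusted by Benjamini-Hochberg, and over all 54 for differences between lines. The scripts were tested on simulated data. The 9 genes and the gene lists were chosen with earlier results of these data known. Named genes are the 9 in every contrast, at most 3 per list and contrast with the smallest adjusted p among non-overlapping 2-fold changes, and the 3 genes with the most similar condition means. Sequences are from RefSeq (GRCh38.p14), positions from GENCODE (GRCh38).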

Additional observations from a re-analysis of the deposited data

Results flagged for a closer look

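A difference between groups in the effect of the same contrast was called for 18 values, all by an interaction term in limma. As given above, some of these calls were lost when 1 library was left out. Between the lines these were RRM2, DUT and DCK with olaparib alone and CDA with the higher CDDP dose alone. DCK in OlaR against olaparib-treated parental cells and TK1 with CDDP in OlaR cells were among them too, as was CDA within SUM1315. Between the lines, the effect of olaparib alone was larger in SUM1315 by 0.34 log2 units for RRM2, 0.32 for DUT, 0.74 for TK1 and 0.92 for DCK (higher in 9.99% of all genes). For the higher CDDP dose alone the differences were 0.92 for RRM2, 0.60 for DUT, 1.15 for TK1, 1.44 for DCK and 1.79 for CDA (higher in 13.7% of all genes). For OlaR against olaparib-treated parental cells they were 0.94 for RRM1, 1.60 for RRM2, -1.0 for DCTD, 0.37 for TK1 and 0.84 for DCK. There, 20.3% of all genes were higher and 21.4% lower. The effect of the higher CDDP dose in OlaR cells differed by -0.41 for TK1 (lower in 2.88% of all genes). Within a line, the effect of the higher CDDP dose in OlaR cells minus that in olaparib-treated parental cells was -0.68 for TK1 and -1.31 for CDA in SUM1315 and -0.45 for TK1 in MDA-MB-468. The groups of 3 libraries are too small for a test of single libraries that stand apart. Differences in reads between libraries of a condition were measured as chi-square per degree of freedom. It ran from 1.60 to 22.1 over pairs, highest between replicates 2 and 3 of SUM1315 with the lower CDDP dose. In untreated SUM1315 cells it was 15.2 and 20.1 for replicate 3 against replicates 1 and 2, and 3.59 between those. Of these libraries, replicate 3 was lowest for RRM1, RRM2, DUT, DCTD and DCK, and highest for TK1, CDA and SAMHD1.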

How the results depend on the processing

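The 9 genes were counted again with a pseudocount of 10, without the filter, with only the compared groups in the fit, with the replicate number as a block, with edgeR under TMM or DESeq2 size factors and with DESeq2 on recovered reads, and without each library. Counts of changed genes moved by more than 1.5 times in 6 comparisons. In SUM1315 OlaR cells with the lower CDDP dose, 0 became 1 with only the compared groups and 1 with DESeq2. The 2 differences of the CDDP effect between OlaR and parental SUM1315 cells became 1 without the filter, 1 with the replicate block, 1 with edgeR under TMM and 1 under DESeq2 size factors, and 1 to 2 without 1 library. Olaparib in MDA-MB-468 went from 5 to 3 with only the compared groups and was at 3 to 5 without 1 library. The lower CDDP dose in MDA-MB-468 OlaR cells went from 2 to 1 without the filter, and was at 1 to 2 without 1 library. Between the lines, the olaparib effect went from 4 to 1 with only the compared groups (1 to 4 without 1 library), and the CDDP effect in OlaR cells from 1 to 2 with only the compared groups and 0 with edgeR under TMM (0 to 1 without 1 library). The causes were not tested. In the other 18 comparisons no count moved by more than 1.5 times. Of 1442 single values under the alternatives, 1389 kept direction and side of the threshold, 31 lost and 22 gained a call, and none of those called reversed. Without 1 library these were 1471, 73 and 10 of 1554. The replicate numbers do not pair libraries, since mean correlations of same-numbered libraries were -0.0079 to 0.0024 after removing the condition means and 11 of 27 SUM1315 and 4 of 27 MDA-MB-468 libraries were closest to their own number, and the block moved no other count by over 1.5 times. Few reads limit CDA in parental MDA-MB-468 cells and TYMS in both lines, and why TYMS had few reads was not tested. Low counts also limit SLC28A3 in drug-treated parental and TYMP in olaparib-treated parental MDA-MB-468 cells.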
